A study of Homo sapiens with 9 samples.

Results

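The 8 messages described here are HMGCS1, SQLE, INSIG1, FDFT1, FDPS, IDI1, MVD and DHCR7, which encode enzymes and 1 regulator of cholesterol synthesis. They were chosen by name, as the rows with these gene symbols, and make up 8 of the 51105 genes listed in both deposited tables. The samples were HEK293T cells, an established human embryonic kidney line, crosslinked with 0.1% formaldehyde for 10 min. The lysate of each replicate was split between RNA immunoprecipitation (RIP) of PABPN, RIP of PABPC and input, with 3 samples in each of the 3 groups and 9 in all. All 9 samples shared the line and the crosslinking, and the labels give no genotype or drug. A RIP measured the RNA that came down with a protein after crosslinking, so direct contact and close proximity were not separated. The 3 samples of a group are described as biological replicates of 1 cell line.

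PABPN is the poly(A) binding protein found mainly in the nucleus, where it coats the growing tail of new transcripts, and PABPC is its cytoplasmic counterpart on mature messages. Cholesterol is built from acetyl-CoA through mevalonate, isoprenoid units, squalene and a series of sterols. The transcription factor SREBP2 switches the genes of this route on together when membrane sterol falls, and INSIG1 holds SREBP2 back when sterol is plentiful. The study asked which RNAs were found with each poly(A) binding protein, and the values below place these 8 messages in that comparison.

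The tail that both proteins bind is added at the 3′ end, so the annotated end of the messages is shown first. In GENCODE (hg38), HMGCS1 lies on chr5:43287470-43313512 (minus strand), INSIG1 on chr7:155297776-155310235 (plus), FDPS on chr1:155308748-155320666 (plus), IDI1 on chr10:1039152-1049119 (minus), MVD on chr16:88651935-88663161 (minus) and DHCR7 on chr11:71428193-71452868 (minus). SQLE and FDFT1 are named only. The 30-base windows below come from the last exon, in the 3′ UTR, of the canonical transcript, 5′ to 3′ on the strand of the gene, with the poly(A) signal AATAAA or its common variant ATTAAA in capitals.
HMGCS1, chr5:43287470-43287499: tcgcttctcaAATAAAtgactttcattcaa
FDPS, chr1:155320636-155320665: gaggctctcAATAAAtaatcgtgtaacctt
MVD, chr16:88651940-88651969: ggccatggggAATAAAccagcattgctgcc
INSIG1, chr7:155310206-155310235: tttttacttttATTAAAggttcaaaaccaa
DHCR7, chr11:71434411-71434440: ctttatATTAAActtcccctgttcaaataa
Within the last 50 bases, AATAAA was found in 5 of the 8 canonical transcripts, or 62.5%, and in 66.8% of 12449 protein coding genes measured above 50 in both tables. Neither hexamer was found there for IDI1. The median canonical transcript of the 8 messages was 2683 bases long with a 3′ UTR of 826.5 bases, beside 3512 and 1396 bases over those protein coding genes.

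Each table held 1 pooled value per gene, the authors' mean over 6 libraries of reads divided by a size factor (normalized reads). One mean covered input and PABPN RIP, the other input and PABPC RIP, and the same 3 input libraries were in both. The means summed to 45539045 normalized reads for PABPN, while those for PABPC summed to 43640812. Because the input part was shared, the ratio of the 2 means, brought to 1 scale through the input libraries, gave the least fold by which PABPC RIP exceeded PABPN RIP where it was above 1. It gave the same bound in the other direction where it was below 1. These pooled values carry no SD, n or p. For 8158 of 14581 genes with both means above 50, the whole reads of each library were recovered from the printed digits, among them IDI1 and MVD but not the other 6 messages. Over all recovered genes, the reads of a library summed to between 5237237 and 7119152. IDI1 and MVD rested on 725 to 2576 reads per library. For IDI1, 5 combinations of reads gave the printed digits and 1 of them held nearly the whole score, while for HMGCS1, SQLE, INSIG1 and DHCR7 no combination reached the share required. The means of FDPS and FDFT1 lay above the highest level searched.

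One library in each group stood apart from the other two. The libraries are called a, b and c here because the recovered reads carry no replicate number. The deviations of input library a from its group mean went with those of PABPN RIP library c (r = 0.73 across 8158 genes) and of PABPC RIP library a (r = 0.72), and those 2 RIP libraries also went together (r = 0.57). Genes are not independent replicates, so these are descriptions. Of markers that this line is known to express, VIM, PAX2 and LHX1 were above 50 in both tables, and CD24 was at 32.02 and 52.3. Of genes of other lineages, INS was at 0 in both tables and PTPRC, CD3E and HBB were below 1, while ALB was at 8.64 and 5.79. The cytoplasmic messages GAPDH, ACTB and RPS2 had scaled ratios of 3.22, 3.05 and 3.84, and the nuclear RNA NEAT1 had 0.290. RN7SL1 and RMRP, which have no poly(A) tail, had 1.03 and 1.01. A ratio near 1 does not show equal recovery with both proteins. An RNA scarce in both RIPs has means made up mostly of the shared input.

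All 8 messages had a higher scaled mean with PABPC RIP than with PABPN RIP. Their ratios ran from 1.27 to 2.30, with a median of 1.54, beside a median of 0.976 over all 14581 genes and 1.04 over 12452 protein coding genes. On the log2 scale, 5 of the 8 lay beyond 0.5 towards PABPC and 0 beyond 0.5 towards PABPN, where 26.6% and 23.3% of all genes lay. Of the 12452 protein coding genes, the class of all 8 messages, 3731 (30%) lay beyond 0.5 towards PABPC and 2106 towards PABPN. With 1 pooled value per table these counts have no test. Each ratio is a lower bound, and the distance to the fold differed between messages. From recovered mean reads the fold between the RIPs was 3.01 for IDI1 and 1.53 for MVD, where the ratios were 1.94 and 1.31. Ranks by ratio, here and below, need not be ranks by fold.

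**Figure D1:**
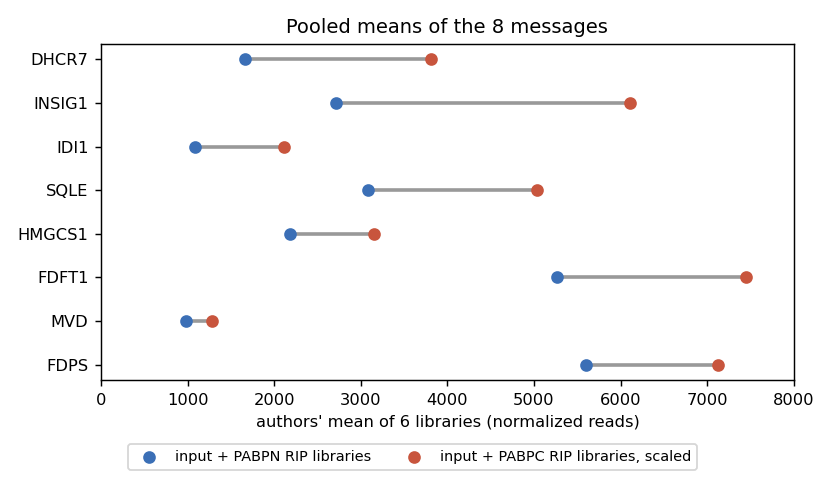
Authors' means of 6 libraries in normalized reads (x axis) for each message (y axis), with blue for input and PABPN RIP and red for input and PABPC RIP after scaling through the shared input. The red point lies to the right of the blue point for all 8 messages, from a ratio of 1.27 for FDPS to 2.30 for DHCR7.

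In pathway order, HMGCS1, the synthase that joins acetyl units into HMG-CoA, had a mean of 2176 normalized reads with PABPN and a scaled mean of 3150 with PABPC, a ratio of 1.45. MVD, which removes a carboxyl group from the phosphorylated mevalonate to give isopentenyl diphosphate, had means of 978 and 1285, a ratio of 1.31. IDI1, the isomerase that interconverts the building blocks of isoprenoids, had means of 1087 and 2110, a ratio of 1.94. Of these 3 enzymes, IDI1 thus had the largest ratio and lay above 86.8% of all genes, while HMGCS1 lay above 74.8% and MVD above 69.6%.

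FDPS, which makes farnesyl diphosphate, had means of 5604 and 7128, and its ratio of 1.27 was the lowest of the 8. FDFT1, the squalene synthase, had means of 5266 and 7447, a ratio of 1.41. The log2 ratio of FDFT1 lay just under 0.5, and that of HMGCS1, at 0.53, just over it. SQLE, the epoxidase that acts on squalene and is a slow step of the route, had means of 3080 and 5036, a ratio of 1.63.

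DHCR7, the reductase of the last step of 1 branch of the route, had means of 1660 and 3815, and its ratio of 2.30 was the highest of the 8. INSIG1, the endoplasmic reticulum protein that retains SREBP2, had means of 2710 and 6115, a ratio of 2.26. A ratio above 2 also sets a bound against input, and by it PABPC RIP was at least 1.30 times input for DHCR7 and at least 1.26 times input for INSIG1. These 2 messages lay above 91.7% and 91.2% of all genes.

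**Figure D2:**
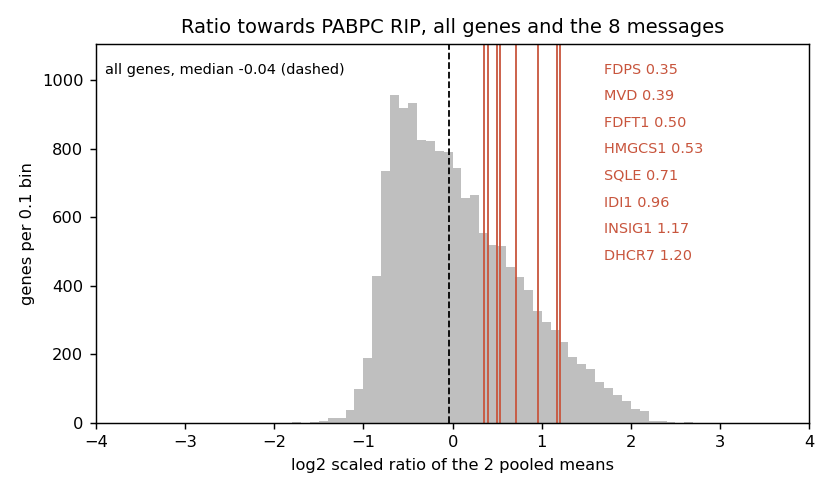
Histogram of the log2 scaled ratio of the 2 pooled means (x axis) over 14581 genes with both means above 50 (y axis, genes per bin), with a red line for each of the 8 messages and a dashed line for the median of all genes. The 8 messages lie between 0.35 and 1.20, to the right of the median of all genes at -0.04.

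As a difference in place of a ratio, the PABPC RIP mean exceeded the PABPN RIP mean by 615 normalized reads for MVD and by 6809 for INSIG1, the smallest and the largest of the 8. Per kilobase of the deposited gene length, the mean with PABPN ran from 207 normalized reads for MVD to 1507 for FDPS, and the scaled mean with PABPC from 272 to 1917 for the same 2 messages. The counts took in intronic reads, and the deposited length exceeded the canonical transcript to a degree that differed between messages. It was 4717 beside 1799 bases for MVD and 6627 beside 5350 for HMGCS1. Levels per kilobase, and their order, are therefore approximate. The members' median on these 2 levels per kilobase was 537 with PABPN and 1041 with PABPC. Closest to it were the 5 protein coding genes NIPA2, RBM38, MIEF1, BPNT2 and RRP7A (log2 scale, Euclidean distance over 2 pooled values). Their ratios of 1.94, 1.91, 1.88, 2.02 and 2.04 follow from that choice, since each is the quotient of the same 2 levels. They are not a separate result.

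For IDI1 the recovered reads gave a value in each library. Normalized reads were 867, 1270 and 1337 in input, 1095, 1087 and 866 in PABPN RIP, and 2372, 3421 and 3386 in PABPC RIP, for libraries a, b and c. Every PABPC RIP library was above every library of the other groups, while the input and PABPN RIP values overlapped. The means were 1158 ± 254 in input, 1016 ± 130 in PABPN RIP and 3060 ± 596 in PABPC RIP (SD, n = 3 each). With limma, IDI1 rose in PABPC RIP over input (log2 difference 1.41, SE 0.20, adjusted p = 0.000125) and over PABPN RIP (log2 difference 1.58, SE 0.19, adjusted p = 9.9e-06), the latter a fold of 2.99. PABPN RIP against input gave a log2 difference of -0.17 (SE 0.17, adjusted p = 0.44), which did not pass the test. Without the library of each group that stood apart, that difference was -0.26 (adjusted p = 0.0018), still within 0.5. Those libraries were picked after seeing these reads, and leaving them out lowers the spread within groups. Adjusted p-values from that fit are therefore descriptions.

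For MVD the normalized reads were 702, 800 and 857 in input, 1214, 1303 and 989 in PABPN RIP, and 1915, 1786 and 1650 in PABPC RIP. The 3 groups did not overlap, with input lowest and PABPC RIP highest. The means were 786 ± 78.1, 1169 ± 162 and 1784 ± 133 (SD, n = 3 each). With limma, MVD rose in PABPC RIP over input (log2 difference 1.18, SE 0.11, adjusted p = 6.4e-06) and over PABPN RIP (log2 difference 0.62, SE 0.12, adjusted p = 0.000537). Without the libraries that stood apart, picked after seeing these reads, the latter difference was 0.45 and no longer past 0.5 (adjusted p = 7.6e-06).

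MVD also rose in PABPN RIP over input (log2 difference 0.57, SE 0.13, adjusted p = 0.0063 by limma), a call that depended on which libraries entered the fit. It was lost without input library a (0.49, adjusted p = 0.017), b (0.58, 0.023) or c (0.63, 0.014) and without PABPN RIP library a (0.53, 0.024) or b (0.48, 0.031), and held without PABPN RIP library c (0.68). It was also lost when differences were centred on the median of all genes (0.49, adjusted p = 0.012). It was kept without both libraries that stood apart (0.60, adjusted p = 3.8e-07 by limma). The call was also kept with a block for libraries matched across groups on their deviations (0.57, adjusted p = 1.7e-05 by limma). Both choices were taken from these same reads and not from the labels, so these adjusted p-values are no separate support for the call.

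**Figure D3:**
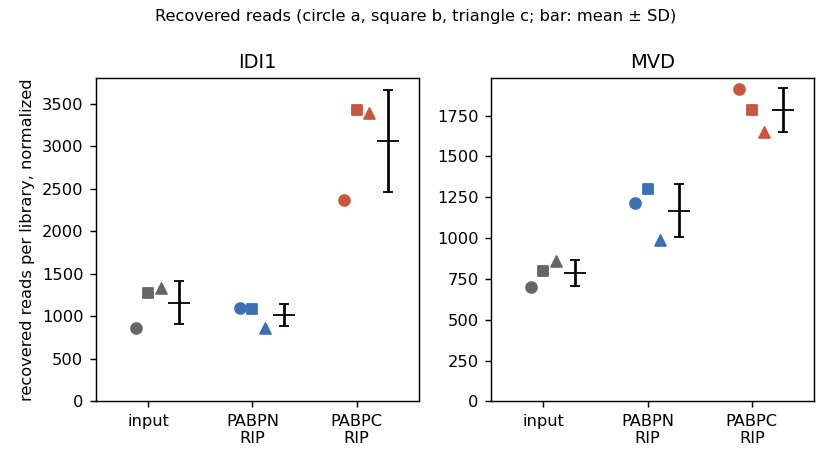
Recovered reads of IDI1 and MVD per library in normalized reads (y axis) by group (x axis), with circles, squares and triangles for libraries a, b and c and bars for the mean ± SD of 3 libraries. The PABPC RIP libraries of IDI1 lie between 2372 and 3421, above all others, and the 3 groups of MVD do not overlap.

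Both messages tested were thus called higher in PABPC RIP than in input, where 40.3% of 8382 genes tested were higher and 30.2% lower. Both were called higher in PABPC RIP than in PABPN RIP, where 32.7% of 8158 genes were higher and 38.7% lower. In PABPN RIP against input 1 of the 2 was called higher, where 19.4% of 9104 genes were higher and 8.89% lower. A call here is a log2 difference beyond 0.5 with an adjusted p of at most 0.01, and both RIPs were set against the same input libraries. With 2 messages tested, no share can be read against these backgrounds.

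The rest of the pathway was described by the same measure. For every list below, the shares over all 14581 genes are 26.6% beyond 0.5 towards PABPC and 23.3% towards PABPN. For the limma call of PABPC RIP against PABPN RIP they are 32.7% higher and 38.7% lower of 8158 genes. Of the other genes of the mevalonate stage, 5 of 6 were above 50 in both tables and 3 lay beyond 0.5 towards PABPC, with a median ratio of 1.42. ACAT2, which joins acetyl-CoA units, was highest at 2.17, and MVK, the mevalonate kinase, was lowest at 1.36. The 2 of these 5 genes with recovered reads, MVK and PMVK, both rose in PABPC RIP over PABPN RIP (limma log2 differences 0.86 and 1.99, adjusted p = 3.5e-06 and 2.6e-07). PMVK, the next kinase of the route, also fell in PABPN RIP against input, by 0.69 on the log2 scale (adjusted p = 0.0062).

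Of the 11 genes from squalene to cholesterol, 8 lay beyond 0.5 towards PABPC and 0 towards PABPN, with a median ratio of 1.69. ERG28, a small membrane protein that works with the sterol demethylation enzymes, was highest at 3.03, and LSS, which closes the sterol rings, was lowest at 0.863. Of the 6 with recovered reads, 4 rose in PABPC RIP over PABPN RIP and 0 fell by the limma call, beside 32.7% and 38.7% of all genes tested. ERG28 had a log2 difference of 2.64 in that comparison (adjusted p = 3.3e-08).

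Of the 9 genes of sterol sensing, 4 lay beyond 0.5 towards PABPC, with a median ratio of 1.37. SREBF1, which encodes SREBP1, was lowest at 0.828. SREBF2, which encodes SREBP2, was at 0.994, and INSIG2, the relative of INSIG1, was at 1.07. RNF139, a ubiquitin ligase of the endoplasmic reticulum, rose in PABPC RIP over PABPN RIP (log2 difference 1.29, adjusted p = 5e-07 by limma), and INSIG2 had a log2 difference of 0.21 (adjusted p = 0.15).

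Genes of sterol uptake and transport had a median ratio of 0.991, with 2 of the 9 measured beyond 0.5 towards PABPC. NPC2, a lysosomal sterol carrier, was highest at 3.34, and MYLIP, a ubiquitin ligase, was lowest at 0.808. By limma, NPC2 rose in PABPC RIP over PABPN RIP by 3.31 on the log2 scale (adjusted p = 5.2e-10) and MYLIP fell by 0.65 (adjusted p = 0.0024), the only gene of these 5 lists called lower there. Of the 9 fatty acid genes that SREBP also drives, 4 lay beyond 0.5 towards PABPC, with a median ratio of 1.25, from SCD, the stearoyl-CoA desaturase, at 2.70 to ACACA, the acetyl-CoA carboxylase, at 0.800.

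**Figure D4:**
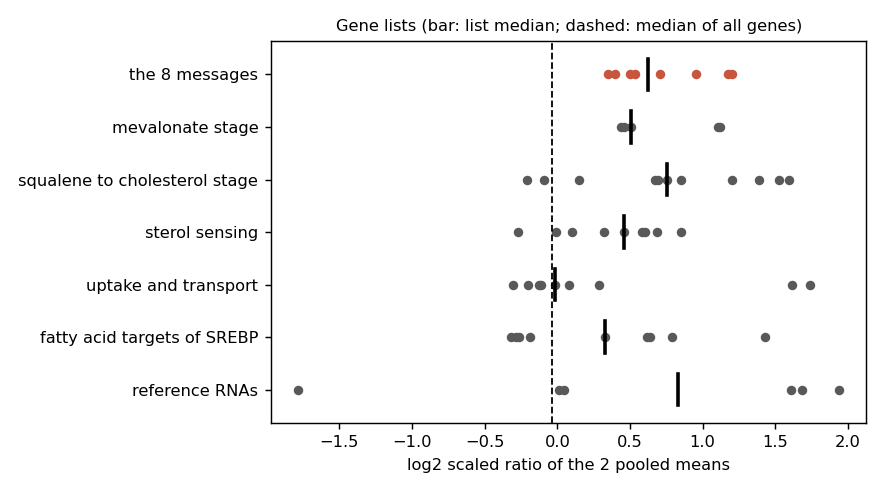
Log2 scaled ratio of the 2 pooled means (x axis) for each gene above 50 in both tables, by list (y axis), with a bar for the median of each list and a dashed line for the median of all genes. The 8 messages (red) lie between 0.35 and 1.20, and the uptake and transport list has its median close to that of all genes.

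Some features of the annotation touch these values. FDPS and IDI1 have processed copies in the tables. FDPSP4 had means of 11.4 and 6.29, and all other copies of both genes were below 3. The means were 5604 and 6094 for FDPS and 1087 and 1804 for IDI1, with PABPC means here given before scaling. A long noncoding RNA is annotated on the opposite strand within or across HMGCS1, FDFT1, FDPS, IDI1 and DHCR7 in GENCODE. The libraries were stranded, but the strand setting of the counting is not given in the sources used here. The paper states that stretches where annotated genes overlap were removed from its annotation before counting. That annotation came from a GENCODE release other than the one read here. Whether the removal covered all of these partners was not tested.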

How the data were processed

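Ribodepleted, stranded libraries were sequenced as single-end reads of 75 nt. According to the methods and the submitters' processing notes, the authors aligned reads to hg38 with STAR, counted exonic and intronic reads with featureCounts 2.0.2 on an annotation derived from GENCODE, and ran DESeq2. The deposited signal is the mean over 6 libraries of reads divided by size factors. The other columns hold the authors' own comparisons (fold changes, errors, p-values) and were not used, and gene length was deposited beside them.

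Each mean is a sum of whole reads times a weight per library. Genes with 1 read in 1 library gave the weights, and genes in both tables identified the 3 input libraries. Lattice reduction then listed the whole reads that give both printed means. At higher means, candidates were scored by the spread between replicates and by the RIP differences from input, both learned from 2538 genes. At lower means a preset spread was used. Typical spreads and differences thus entered the choice among the 5 candidates of IDI1, while MVD had 1 candidate. The SE and adjusted p of IDI1 do not account for that choice. Reads were accepted where the best candidate held a score share of at least 0.999. That share was set on made-up reads with the spread of typical genes, where 0.99 let wrong solutions through at high levels. Genes that vary more between libraries were not covered. The rounding tolerance was set on residuals of recovered genes after a first run had shown the members' solutions, and a threshold of 0.99, chosen with the share of DHCR7 known, was used in 1 run before it was put back to 0.999. DHCR7 missed it narrowly (0.99897, and 0.978 with the wider tolerance of the first run) and HMGCS1 had 0.977. The members' comparison columns had been seen before these choices.

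Comparisons used limma 3.58.1 in R 4.3.3 (lmFit, eBayes with trend) on log2(normalized reads + 1), two-sided, with Benjamini-Hochberg adjustment over all tested genes, for means above 50. The 2 tables were put on 1 scale by the mean ratio of the 3 input weights, 0.855. The fits were tested on simulated data. Of simulated 2-fold changes, 50% were called in PABPN RIP against input, 48% in PABPC RIP against input and 60% between the RIPs. Of 3-fold changes, 82%, 83% and 94% were called. Many true 2-fold changes would thus be missed, and a gene not called is not shown to be unchanged. Genes named beyond the 8 were the highest and lowest of each fixed list, the 5 closest to the members' median, and others named for their role after their values were seen. Some genes of these lists are not reported here by name. The members and lists were chosen with earlier results of these data known. Sequences were read from GENCODE 44.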

Additional observations from a re-analysis of the deposited data

How the results depend on the processing

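Lysates were split, but the recovered libraries carry no replicate number and the labels' pairing could not be applied. A replicate block was therefore fitted, after seeing the data, on libraries matched by their deviations from the group means. The lowest correlation within these matches was 0.34, and the summed correlation of 4.77 was close to the 4.56 of the next matching, which swaps 2 PABPC RIP libraries. With this block 2290 genes were higher and 1063 lower in PABPN RIP than in input, no call of IDI1 or MVD changed, and IDI1 in PABPN RIP over input had an adjusted p of 0.054 (limma). Of 235 values recomputed under alternatives, 201 kept their call or size, 9 gene tests lost their call and 0 reversed. The other 25 were 9 counts that changed by over 1.5 times and 16 pooled ratios of the messages, which kept their direction but shifted by more than the SD over the 3 input scales. Beyond a log2 difference of 1, PABPN RIP against input had 778 genes higher and 213 lower. With no filter on low means, 5201 genes were lower in PABPC RIP than in input, and against PABPN RIP 4039 were higher and 6375 lower. With means above 200, 1454 genes were lower in PABPC RIP than in input and 1792 lower than in PABPN RIP. Leaving out 1 library at a time, 466 to 873 genes were lower in PABPN RIP than in input (507 without input library b and 466 without c) and 1250 to 1825 were higher. Leaving out 1 library gave log2 differences for IDI1 of 1.47 to 1.75 between the RIPs, 1.20 to 1.58 for PABPC RIP over input and -0.37 to -0.06 for PABPN RIP over input. For MVD the ranges were 0.50 to 0.70, 1.10 to 1.25 and 0.48 to 0.68. Scaled by the median ratio over genes or by input library a alone, 6 of the 8 messages lay beyond 0.5 towards PABPC, FDFT1 being the one added. At a score share of 0.99, an alternative chosen after seeing the data, 3 messages were recovered. DHCR7 then had 1927, 2350 and 2313 reads in input, 1274, 1123 and 762 in PABPN RIP and 4203, 4290 and 3884 in PABPC RIP. The log2 differences were -1.25 for PABPN RIP over input, 1.19 for PABPC RIP over input and 2.44 between the RIPs (adjusted p = 0.000728, 0.00011 and 2.2e-07 by limma). These reads were 1 of 120 candidates for DHCR7, and the adjusted p-values do not account for the choice among them. Recovery favours lower levels: 96.7% of genes with a level of 1000 to 1500 were recovered, 13.4% of those from 2000 to 2500 and 0 above 2500.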
